A study of Homo sapiens with 27 samples.

Results

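Secreted proteins of the extracellular matrix, 9 in number, are described here at the level of their mRNA. They are the adhesive glycoproteins fibronectin (FN1) and transforming growth factor beta induced protein (TGFBI), the matricellular proteins tenascin C (TNC), thrombospondin 1 (THBS1), SPARC and periostin (POSTN), the elastic fibre and microfibril proteins fibulin 5 (FBLN5) and fibrillin 1 (FBN1), and the proteoglycan testican 1 (SPOCK1). Their genes are 9 of the 36536 features in the deposited count table, found by symbol, and each has a single row there. All 9 passed the filter on low counts, which left 15575 features for testing. The genes were picked as one protein group with earlier results of the same libraries in view, among them the fold changes of THBS1 with EGF, of TNC and TGFBI with OSM+TGFB, and of FN1 with EGF+OSM. Their levels, fold changes and calls are therefore given as a description, with no p-value, and support nothing beyond themselves.

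The cells were MCF10A, an established non-tumorigenic line of human mammary epithelium. They were grown in a medium with serum, insulin, hydrocortisone, cholera toxin and 20 ng/ml epidermal growth factor (EGF), seeded on plates coated with collagen 1 and then kept for 18 h in medium free of growth factors. Ligands at 10 ng/ml each were then given in fresh medium free of growth factors: EGF, oncostatin M (OSM) or transforming growth factor beta (TGFB) alone, the pairs EGF+OSM, EGF+TGFB and OSM+TGFB, or all 3 together. RNA was taken at 24 h from these 7 groups and from a PBS control, and at 0 h from cells that had only been starved (T0, labelled Null). Every group has 3 libraries, 27 in all, of stranded polyA RNA. The labels number them as replicates without saying whether they came from separate cultures, so the spread between them may be technical. All groups share the line, the coating and the starvation, so the values belong to 1 cell line on 1 substrate.

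Fibronectin is laid down as fibrils that cells grip through integrins, and its production by epithelial cells is a textbook feature of the response to TGFB, in which receptor kinases activate SMAD transcription factors. Matricellular proteins are secreted into the matrix but serve less as scaffold than as modulators of adhesion, protease activity and growth factor availability, and they are typical of wounds and of the reactive stroma of tumours. EGF signals through a receptor tyrosine kinase to the ERK cascade and AP-1 factors, and OSM signals through gp130 to STAT3, whose binding element is known as GAS.

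The 4 genes with the widest span between group means were POSTN, TNC, FN1 and THBS1, and the sequence just upstream of their transcription starts is shown because it is where factors of the 3 pathways would be looked for first. The sequences are RefSeq promoters of build GRCh38.p14, which held 8 of the 9 genes. Of each window of 250 bases before the RefSeq start, bases inside the outermost transcript of GENCODE v44 are left off. Each is written 5′ to 3′ on the strand of its gene, and capitals mark matches to the motifs named after them.
FN1 (chr2:215436074-215436318, minus strand): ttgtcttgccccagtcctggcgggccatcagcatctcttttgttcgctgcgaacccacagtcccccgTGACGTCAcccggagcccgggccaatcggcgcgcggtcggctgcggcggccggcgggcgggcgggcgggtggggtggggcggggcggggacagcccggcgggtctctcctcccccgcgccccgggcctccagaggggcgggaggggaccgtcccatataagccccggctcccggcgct
TNC (chr9:115118208-115118407, minus strand): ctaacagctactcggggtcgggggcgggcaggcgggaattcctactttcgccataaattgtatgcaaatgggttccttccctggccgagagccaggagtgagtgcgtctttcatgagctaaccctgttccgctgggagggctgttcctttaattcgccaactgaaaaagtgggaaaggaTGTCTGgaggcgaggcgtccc
THBS1 (chr15:39580829-39581078, plus strand): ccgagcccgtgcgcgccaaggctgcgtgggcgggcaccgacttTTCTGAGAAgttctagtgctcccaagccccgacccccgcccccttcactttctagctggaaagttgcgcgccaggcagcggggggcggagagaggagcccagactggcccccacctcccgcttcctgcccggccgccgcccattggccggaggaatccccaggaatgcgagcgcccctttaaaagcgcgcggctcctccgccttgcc
POSTN (chr13:37598845-37599018, minus strand): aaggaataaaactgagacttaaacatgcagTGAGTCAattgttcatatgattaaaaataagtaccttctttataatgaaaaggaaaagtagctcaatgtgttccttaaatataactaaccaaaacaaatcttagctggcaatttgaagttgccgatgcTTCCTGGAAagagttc

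The 5 motifs were searched on both strands in the 250 bases before each start. The cyclic AMP response element TGACGTCA lay in FN1, from 183 to 176 bases before the start, and 1.65% of the 35116 RefSeq promoters hold it in a window of that length. The AP-1 motif TGANTCA (N is any base) lay in POSTN, 220 to 214 bases before the start, and is in 6.57% of promoters. The GAS motif TTCNNNGAA lay in THBS1, 207 to 199 bases before the start, and in POSTN, 92 to 84 bases before it, and is also in 6.57% of promoters. The CAGA motif CAGACA, a SMAD element, lay in TNC on the opposite strand, 71 to 66 bases before the start, and is in 13.6% of promoters. The palindromic SMAD motif GTCTAGAC, held by 0.182% of promoters, was in none of the 8 genes' windows. No match overlapped another. TGFBI, SPARC, FBLN5 and FBN1 held none of the 5 motifs in these windows, and SPOCK1 was not searched. The window of FBN1 and each window of FBLN5 lay wholly inside the outermost transcript of GENCODE v44. For these genes the search did not cover sequence upstream of that transcript. A match of letters is a description of the sequence only.

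Library totals ran from 30.1 M to 52.9 M estimated counts (M stands for 1000000) around a median total of 39.5 M. The unit of level is CPM, the counts of a gene per 1000000 counts of its library, where the library total is first scaled by TMM, the trimmed mean of log ratios between libraries. Every mean stands with its SD over 3 libraries. No library was closer to a library of another group than to those of its own. The ligand labels were checked on genes known to answer to each. Against PBS, all 5 of DUSP6, SPRY2, SPRY4, PHLDA1 and EGR1 were called higher with EGF. So were all 5 of SOCS3, OSMR, BCL3, STAT3 and JUNB with OSM, and SMAD7, SKIL, PMEPA1 and LTBP2 with TGFB. Not all separate the ligands. DUSP6, SPRY4, PHLDA1 and EGR1 were called higher with OSM too, while SPRY2 was lower. LTBP2 stood at 190 CPM with OSM and 150 CPM with EGF, beside 164 CPM with TGFB. SOCS3 stood at 165 CPM with OSM, 1.28 CPM with EGF and 3.03 CPM with TGFB. All 7 mammary epithelial markers, the keratin genes KRT5, KRT14 and KRT17 among them, were at 1 CPM or more in every group, with a summed level from 10028 CPM with EGF to 21426 CPM with OSM+TGFB. Of 8 fibroblast markers only COL1A1 and DCN reached 1 CPM in any group, and COL3A1 had no count in 5 of the 9 groups. The summed fibroblast list stood at 131.0 CPM in PBS, 207.9 CPM with TGFB, 185.7 CPM with OSM+TGFB, 86.8 CPM with EGF+TGFB, 53.4 CPM with all 3, 33.0 CPM with EGF and 13.9 CPM with EGF+OSM. It was thus higher than in PBS in 2 of the 4 groups with TGFB and lower in the other 2, while FN1, TNC and POSTN were higher in all 4. The 2 genes behind the sum differed. COL1A1 had a mean of 38.7 ± 3.44 CPM in PBS, 110.8 CPM with TGFB, 90.1 CPM with OSM+TGFB, 75.3 CPM with EGF+TGFB and 40.7 ± 3.19 CPM with all 3. DCN had 91.6 CPM in PBS and 96.2, 94.4, 11.0 and 12.1 CPM in the same order. The part of such cells in the levels of FN1, TNC and POSTN was not tested. Of 3 leukocyte markers, PTPRC and CD3E stayed below 0.2 CPM and CD14 ranged from 1.89 CPM with EGF+TGFB to 63.7 CPM with OSM. Smooth muscle markers summed to 7.88 to 13.4 CPM and endothelial markers to at most 3.57 CPM. In bulk RNA, more transcript in every cell and a larger share of cells with the transcript cannot be told apart.

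**Figure D1:**
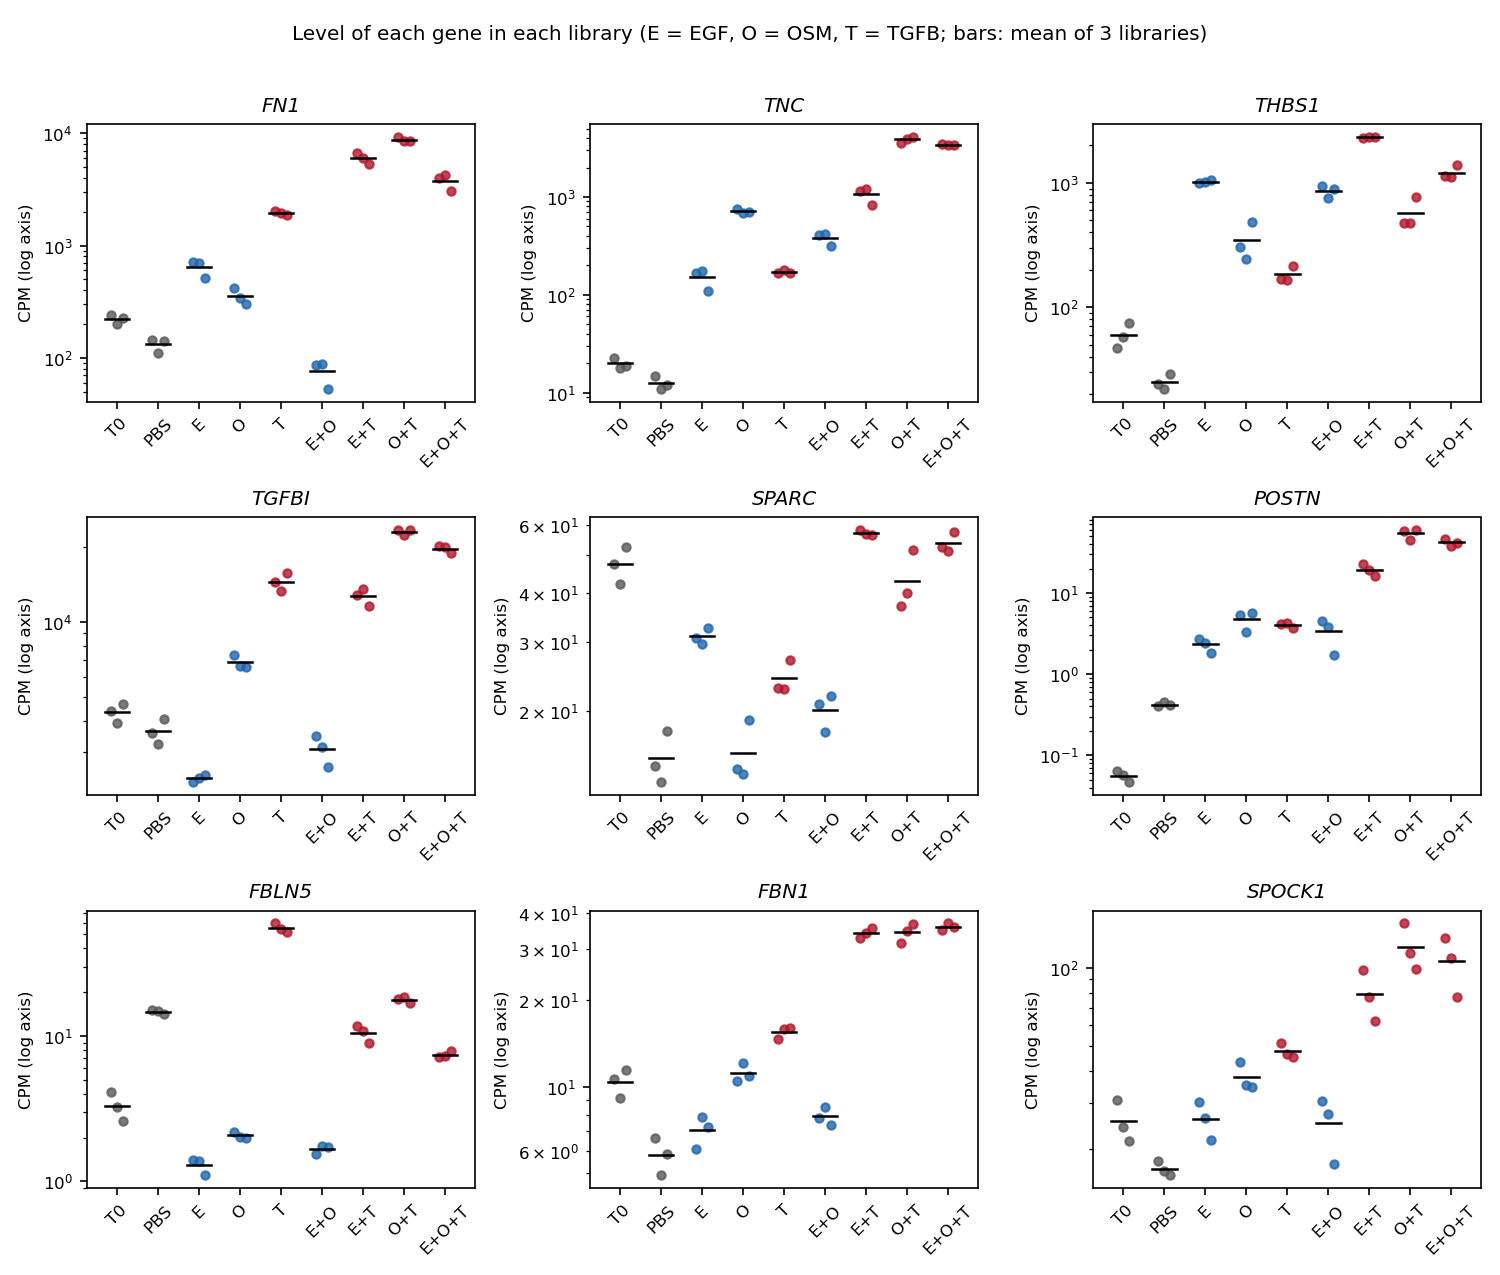
Level of each of the 9 genes in each of the 27 libraries, in CPM on a log axis, with T0 and PBS in grey, groups without TGFB in blue and groups with TGFB in red. Points are libraries and bars are group means of 3. FN1 is lowest with EGF+OSM and highest with OSM+TGFB, and FBLN5 is highest with TGFB alone.

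FN1 (ENSG00000115414) lies on chromosome 2 from 215360440 to 215436073 on the minus strand of GRCh38 and encodes fibronectin, whose fibrils bind integrins, collagen and heparin. The PBS libraries stood at 144, 111 and 141 CPM and the T0 libraries at 240.5, 198 and 226 CPM. Each ligand alone came with more FN1: 721, 707 and 513 CPM with EGF, 421, 344 and 304 CPM with OSM and 2046, 1959 and 1888 CPM with TGFB. These are 4.90-fold, 2.70-fold and 14.9-fold the PBS mean, and no library of a ligand group fell into the range of PBS. The pair EGF+OSM ran the other way. Its libraries held 87.2, 88.5 and 52.9 CPM, all below the lowest PBS library, for a mean of 76.2 ± 20.2 CPM against 132 ± 18.3 CPM in PBS, the lowest of all 9 groups. Library 3 of the pair was the lowest of the 27 for FN1. With TGFB in the medium, FN1 reached 6606, 6083 and 5288 CPM with EGF+TGFB, 9289, 8535 and 8455 CPM with OSM+TGFB and 3961, 4221 and 3039 CPM with all 3. The OSM+TGFB mean of 8759.7 ± 459.8 CPM was 115-fold the EGF+OSM mean. In order of their means the 9 groups ran EGF+OSM, PBS, T0, OSM, EGF, TGFB, all 3, EGF+TGFB and OSM+TGFB, and no neighbours in that order overlapped.

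TNC (ENSG00000041982; chromosome 9, 115019575 to 115118207, minus strand) encodes tenascin C, a many-armed protein of wound and tumour stroma that weakens cell attachment to fibronectin. It was low in PBS, at 14.9, 10.9 and 11.9 CPM, and at T0, at 22.7, 18.0 and 18.8 CPM. OSM was the ligand with the most TNC by itself: 746, 687 and 707 CPM, a mean 56.9-fold that of PBS. EGF libraries held 169, 174 and 108 CPM and TGFB libraries 169, 181 and 167 CPM, and these 2 groups overlapped. EGF library 3 was apart from its fellows on the low side. EGF+OSM, at 410.2, 413 and 317 CPM, lay between EGF and OSM, with no overlap with either. EGF+TGFB gave 1164, 1208 and 827 CPM, and again library 3 was the low one. The 2 groups with both OSM and TGFB were the highest, at 3605, 3943 and 4121 CPM without EGF and 3458, 3374 and 3379.7 CPM with it. The OSM+TGFB mean of 3889 ± 262 CPM was 310.5-fold the PBS mean, and TNC had the second widest span of group means among the 9 genes after POSTN.

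THBS1 (ENSG00000137801; chromosome 15, 39581079 to 39599466, plus strand) encodes thrombospondin 1, a trimeric glycoprotein that binds CD36, CD47 and integrins and can release TGFB from its latent complex. It was lowest in PBS, at 24.2, 22 and 28.9 CPM, and stood at 47.0, 57.8 and 75.2 CPM at T0. EGF was the single ligand with the most THBS1: 1008, 1016 and 1051 CPM, a mean 40.9-fold that of PBS. OSM libraries spread widely, at 305, 245 and 489 CPM, and TGFB libraries held 169.8, 165 and 216 CPM. OSM library 3 was about as high as the low libraries of OSM+TGFB, which held 479.6, 479.6 and 772 CPM, so these 2 groups overlapped. The library numbered 3 was the highest in T0, PBS, EGF, OSM, TGFB, OSM+TGFB and the triple combination. All 4 groups with EGF averaged more THBS1 than any group without it: 951, 754 and 898 CPM with EGF+OSM, 1137, 1109 and 1384 CPM with all 3 and 2291, 2347 and 2345 CPM with EGF+TGFB. Library by library there was 1 exception, since the highest OSM+TGFB library lay just above the lowest EGF+OSM library. The EGF+TGFB mean of 2327 ± 31.9 CPM was 93.0-fold the PBS mean of 25.0 ± 3.5 CPM.

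TGFBI (ENSG00000120708; chromosome 5, 136028988 to 136063818, plus strand) encodes a secreted protein of fasciclin domains, named for its response to TGFB, that binds collagens and integrins. It was the most abundant of the 9 in every group and ranked 3 by mean CPM of the 36536 features, with FN1 in place 24. PBS libraries held 3576, 3233 and 4081 CPM and T0 libraries 4393, 3917 and 4678 CPM, 2 ranges that overlapped. EGF was the single ligand with less TGFBI than PBS: 2269.9, 2357 and 2425 CPM, all below the PBS range, a mean 1.54-fold lower. OSM libraries stood at 7327, 6665 and 6605 CPM and TGFB libraries at 14390.4, 13267 and 15684 CPM, 1.89-fold and 3.98-fold the PBS mean. EGF+OSM libraries, at 3487, 3149 and 2623 CPM, overlapped PBS. EGF+TGFB libraries, at 12769, 13534 and 11599 CPM, overlapped those with TGFB alone. OSM+TGFB was the highest group, at 23286, 22306 and 23295 CPM, followed without overlap by all 3 ligands at 20074, 19892 and 18848 CPM.

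POSTN (ENSG00000133110; chromosome 13, 37562583 to 37598844, minus strand) encodes periostin, a relative of TGFBI with the same fasciclin domains that helps cross-link collagen. It had the lowest starting level of the group, with 3, 3 and 2 counts in the T0 libraries. PBS libraries held 0.4, 0.453 and 0.415 CPM. The 54 counts of the PBS libraries against 8 at T0 give a ratio of 7.58, with an exact 95% interval for the counts from 3.58 to 18.4 that covers counting error only. With 1 ligand it stood at 2.74, 2.45 and 1.83 CPM for EGF, 5.35, 3.33 and 5.70 CPM for OSM and 4.15, 4.23 and 3.66 CPM for TGFB, and with EGF+OSM at 4.58, 3.84 and 1.74 CPM. All of these exceeded every PBS library, but EGF overlapped EGF+OSM, EGF+OSM overlapped TGFB and TGFB overlapped OSM. With TGFB and a second ligand the level was another step up: 22.7, 19.3 and 16.1 CPM with EGF+TGFB, 58.2, 45.5 and 59.6 CPM with OSM+TGFB and 46.0, 38.2 and 41.9 CPM with all 3. The last 2 groups overlapped each other. The OSM+TGFB mean of 54.4 ± 7.75 CPM was 129-fold the PBS mean of 0.423 ± 0.0272 CPM. Its promoter, printed above, was the one with matches to 2 of the 5 motifs, AP-1 and GAS.

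SPARC (ENSG00000113140; chromosome 5, 151661096 to 151686975, minus strand) encodes osteonectin, a calcium-binding matricellular protein that binds collagen. Its group means spanned 3.78-fold, the narrowest span of the 9 genes. It was the one gene whose T0 level stood among the highest, at 47.4, 42.3 and 52.5 CPM, against 14.4, 13.1 and 17.7 CPM after 24 h in PBS. OSM libraries, at 14.1, 13.7 and 18.9 CPM, overlapped PBS, and the fold change of 0.046 ± 0.14 (log2 ± SE) was not called. EGF gave 30.8, 29.7 and 32.5 CPM, TGFB 22.9, 22.7 and 27 CPM and EGF+OSM 20.8, 17.6 and 21.8 CPM, so that EGF+OSM sat between OSM and EGF. EGF+TGFB libraries were tightly grouped at 58.1, 56.9 and 56.3 CPM, the highest mean. OSM+TGFB, at 37.1, 40.0 and 51.6 CPM, and all 3 ligands, at 52.5, 51.2 and 57.4 CPM, overlapped T0.

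FBN1 (ENSG00000166147; chromosome 15, 48408313 to 48645721, minus strand) encodes fibrillin 1, the backbone of the microfibrils that carry elastin and hold latent TGFB in the matrix. PBS libraries held 6.63, 4.92 and 5.82 CPM, T0 10.7, 9.10 and 11.4 CPM, EGF 6.05, 7.86 and 7.22 CPM and EGF+OSM 7.80, 8.5 and 7.38 CPM. PBS overlapped EGF and EGF overlapped EGF+OSM, while OSM, at 10.4, 12.0 and 10.9 CPM, and TGFB, at 14.7, 15.9 and 15.9 CPM, stood above PBS without overlap. The 3 combinations with TGFB reached one plateau: 32.7, 34.0 and 35.4 CPM with EGF+TGFB, 31.6, 34.8 and 36.5 CPM with OSM+TGFB and 34.8, 36.8 and 35.8 CPM with all 3. Their ranges overlapped, and their means were 5.88-fold to 6.19-fold that of PBS.

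FBLN5 (ENSG00000140092; chromosome 14, 91869411 to 91947987, minus strand) encodes fibulin 5, which links integrins to elastin and is needed for elastic fibre assembly. It was the one gene of the 9 with its highest mean in TGFB alone, at 59.5, 54.1 and 51.9 CPM, 3.75-fold the PBS libraries at 15, 14.9 and 14.2 CPM. It was lowest with EGF, at 1.40, 1.38 and 1.1 CPM, 11.4-fold below PBS. OSM libraries held 2.19, 2.02 and 2 CPM and EGF+OSM libraries 1.54, 1.75 and 1.72 CPM, so that all 3 groups with EGF, OSM or both and no TGFB stood 7.11-fold or more below PBS and also below T0, at 4.09, 3.23 and 2.59 CPM. With TGFB added, the level was 11.8, 10.8 and 8.95 CPM for EGF+TGFB, 18.0, 18.5 and 16.7 CPM for OSM+TGFB and 7.17, 7.28 and 7.90 CPM for all 3, on both sides of PBS. No neighbours in the order of the 9 groups overlapped.

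SPOCK1 (ENSG00000152377; chromosome 5, 136975298 to 137598379, minus strand) encodes testican 1, a secreted proteoglycan with a SPARC-like calcium-binding domain. PBS libraries held 18.0, 16.5 and 15.8 CPM, EGF 30.3, 26.2 and 21.8 CPM, OSM 43.5, 35.2 and 34.6 CPM and TGFB 51.5, 46.4 and 45.4 CPM. EGF, EGF+OSM at 30.7, 27.3 and 17.5 CPM and T0 at 30.8, 24.4 and 21.4 CPM overlapped one another, and EGF+OSM also overlapped PBS. The combinations with TGFB were the highest: 97.6, 77.4 and 62.4 CPM with EGF+TGFB, 148, 114 and 99.2 CPM with OSM+TGFB and 130.3, 109 and 77.3 CPM with all 3. Each of these overlapped its neighbour in the order. In all 9 groups the library numbered 1 was the highest for SPOCK1 and the library numbered 3 the lowest; the labels do not say what the numbers stand for.

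Compared per kilobase of the canonical transcript, TGFBI stood at 1339 CPM per kb in PBS against 15.7 for FN1, 3.21 for THBS1 and 1.47 for TNC. With OSM+TGFB these levels were 8467 CPM per kb for TGFBI, 1044 for FN1, 74.1 for THBS1 and 458 for TNC. The 9 genes together took 0.422% ± 0.051 of all counts in PBS, 1.77% ± 0.12 with TGFB, 2.10% ± 0.12 with EGF+TGFB, 3.20% ± 0.081 with OSM+TGFB and 2.47% ± 0.071 with all 3 ligands (SD, n = 3). TGFBI alone made up 94.2% of the 9 genes' counts in PBS and 63.0% with OSM+TGFB. Without TGFB in the medium the share of all counts stayed at 0.46% with EGF, 0.456% with EGF+OSM and 0.820% with OSM.

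Fold changes against PBS were fitted across all 15575 features with edgeR's quasi-likelihood test, and a gene was called at a Benjamini-Hochberg adjusted p under 0.05. With TGFB alone all 9 genes were called higher, where 19.9% of all features were, and with OSM+TGFB all 9 were again, where 34.2% of all features were. EGF alone had 7 of the 9 called higher, beside 34.9% of all features, and 2 called lower, FBLN5 and TGFBI, beside 38.6%. OSM alone had 7 called higher beside 33.5% of features and 1, FBLN5, called lower beside 29.8%. EGF+OSM had 6 called higher beside 37.6% and 3 called lower, FN1, TGFBI and FBLN5, beside 39.6%. EGF+TGFB had 8 called higher beside 36.2% of features, and all 3 ligands had 8 called higher beside 37.7%. FBLN5 was the one gene called lower in both, where 37.5% and 36.7% of features were. The median log2 fold change of the 9 genes was 1.04 with EGF, 1.17 with OSM, 1.99 with TGFB, 0.45 with EGF+OSM, 2.56 with EGF+TGFB, 2.85 with OSM+TGFB and 2.66 with all 3, while that of all features lay between -0.072 and 0.0023. These 7 comparisons share the PBS libraries, and the genes were chosen on them, so the counts are given without a reading.

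**Figure D2:**
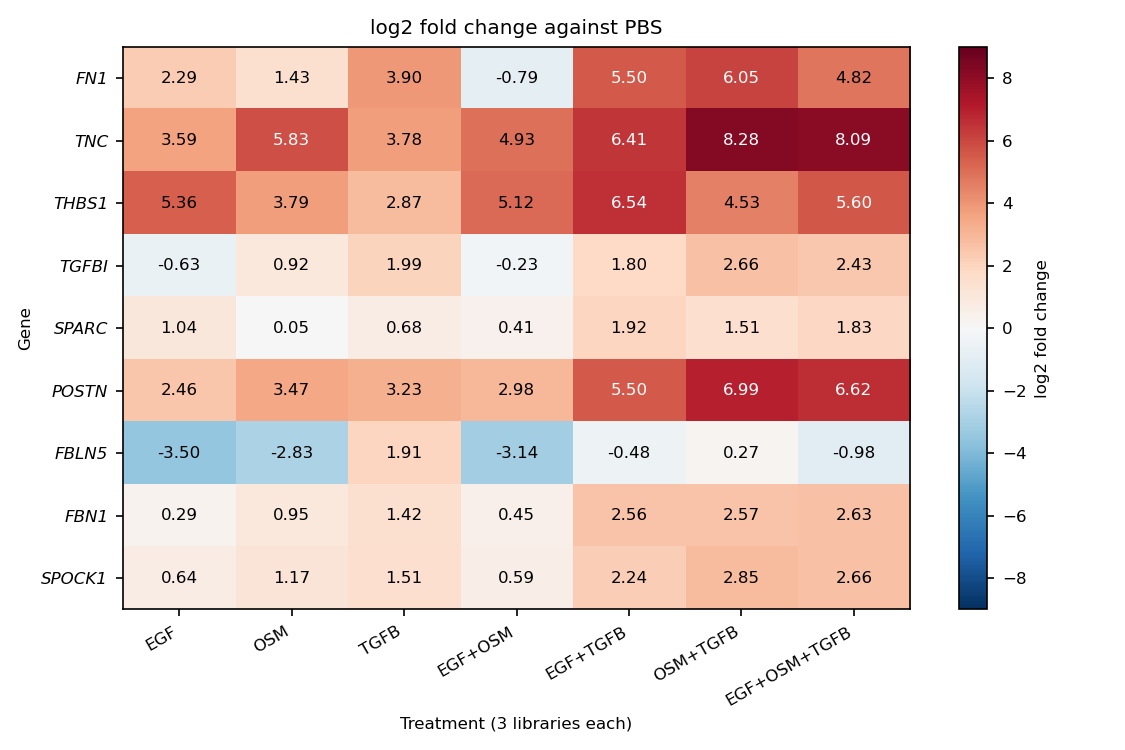
Heat map of the fitted log2 fold change of each gene (rows) against PBS in the 7 ligand groups (columns, 3 libraries each), with the value written in each cell and red for higher, blue for lower. TNC reaches 8.28 with OSM+TGFB, and FBLN5 lies below 0 in 5 of the 7 groups.

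Some calls against PBS were lost when 1 library was left out. FBN1 with EGF, at 0.29 ± 0.11 (log2 ± SE), lost its call at 0.18 without PBS library 2 and at 0.20 without EGF library 2. SPOCK1 with EGF, at 0.64 ± 0.23, lost it at 0.61 without PBS library 3 and at 0.52 without EGF library 1. For EGF+OSM, TGFBI at -0.23 ± 0.090 lost its call at -0.14 without PBS library 3 and at -0.13 without EGF+OSM library 3. SPARC in that pair, at 0.41 ± 0.13, lost it at 0.32 without PBS library 2. SPOCK1 in that pair, at 0.59 ± 0.23, lost it at 0.58 and 0.55 without PBS library 2 or 3 and at 0.43 and 0.53 without EGF+OSM library 1 or 2. FBLN5 with OSM+TGFB, at 0.27 ± 0.10, lost it at 0.25 without PBS library 3 and at 0.26 and 0.24 without OSM+TGFB library 1 or 2. Upper-quartile scaling in place of TMM also ended the calls of FBN1 with EGF, at 0.22, SPOCK1 with EGF+OSM, at 0.50, and FBLN5 with OSM+TGFB, at 0.18. TGFBI with EGF+OSM was not called with no filter on low counts, at -0.23, or with only those 2 groups in the fit, at -0.25. The other calls against PBS held with each library left out in turn. With the replicate number as a block, no call against PBS was lost.

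The study's title speaks of non-additive responses. For each pair the departure from additivity was taken as its log2 fold change against PBS minus the sum of the 2 single-ligand log2 fold changes. Adding on the log2 scale multiplies the folds, so a gene below additivity here can still exceed the sum of the single-ligand changes in CPM. For EGF+OSM all 9 genes were called, 8 below additivity beside 23.0% of all features and 1, FBLN5, above it beside 15.7%. The departure was -4.52 ± 0.26 (log2 ± SE) for FN1, -4.5 ± 0.24 for TNC, -4.03 ± 0.33 for THBS1 and -2.95 ± 0.44 for POSTN. It was smaller for SPOCK1 at -1.23 ± 0.32, FBN1 at -0.79 ± 0.15, SPARC at -0.67 ± 0.19 and TGFBI at -0.53 ± 0.13. FBLN5 departed upward by 3.20 ± 0.21, since EGF (-3.5 ± 0.13) and OSM (-2.83 ± 0.12) each lowered it and the pair, at -3.14 ± 0.13, lowered it no further than EGF did. Of the 8 genes below additivity, FN1 and TGFBI were called below PBS in the pair. For TGFBI this was so with EGF alone as well, at -0.63 ± 0.090. For FN1 both single ligands were above PBS, by 2.29 ± 0.18 and 1.43 ± 0.18, and the pair was below it, at -0.79 ± 0.18.

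Fewer of the genes were called for the pairs with TGFB. For EGF+TGFB 3 genes were called above additivity, FBLN5 at 1.11 ± 0.17, FBN1 at 0.84 ± 0.14 and TGFBI at 0.43 ± 0.13, beside 13.3% of features. Another 3 were called below it, THBS1 at -1.69 ± 0.32, TNC at -0.96 ± 0.23 and FN1 at -0.68 ± 0.25, beside 16.5%. For OSM+TGFB 3 genes were called above it, FBLN5 at 1.2 ± 0.16, SPARC at 0.78 ± 0.19 and FN1 at 0.73 ± 0.25, beside 9.61%. THBS1 at -2.14 ± 0.32 and TNC at -1.34 ± 0.23 were called below it, beside 13.7%. All genes called below additivity in these pairs had mean CPM above those of both single ligands. TNC stood at 3889 CPM with OSM+TGFB, beside 713 CPM with OSM and 172 CPM with TGFB. FN1 stood at 5992 CPM with EGF+TGFB, beside 647 CPM with EGF and 1964 CPM with TGFB. Both FN1 departures lay close to the threshold, and most libraries left out ended the call with little change in the value. With 1 of its 12 libraries left out, the EGF+TGFB departure of FN1 lost its call 9 times, at -0.54 to -0.73, and kept it without PBS library 1, EGF library 3 or EGF+TGFB library 1. Its OSM+TGFB departure lost the call 10 times in 12, at 0.62 to 0.76, and kept it without PBS library 2 or OSM library 1. With no filter on low counts neither was called, at -0.64 and 0.74. POSTN, whose highest levels were in these pairs, departed by -0.19 ± 0.45 and 0.29 ± 0.48 and SPOCK1 by 0.088 ± 0.31 and 0.16 ± 0.31, none of them called. The 3 departures share single-ligand and PBS libraries.

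**Figure D3:**
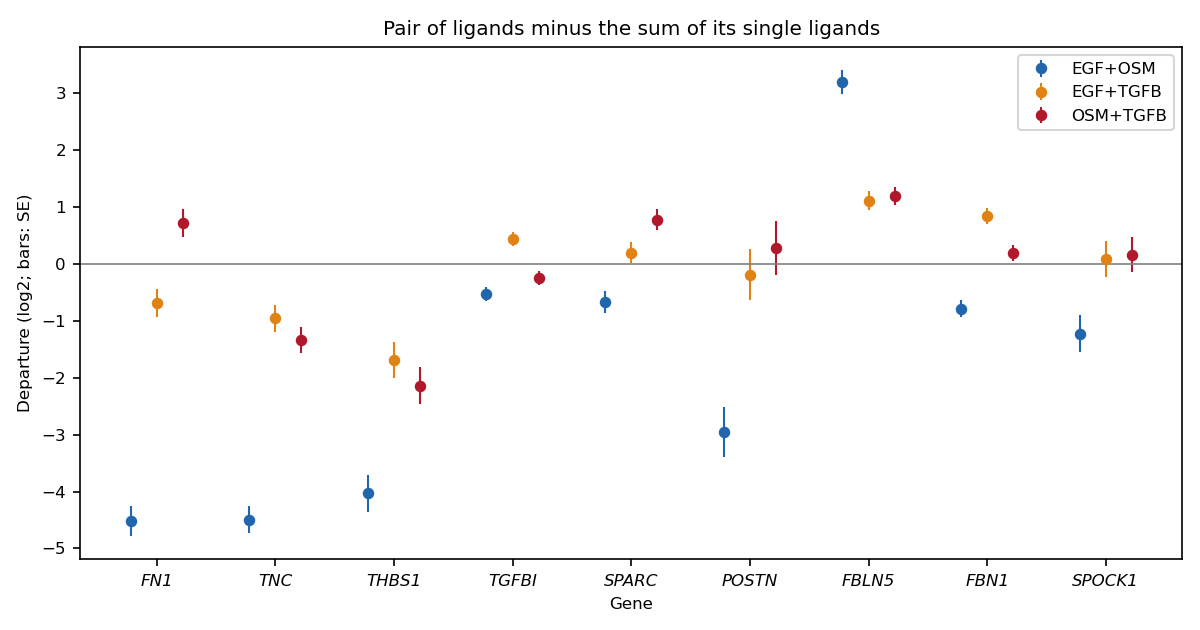
Departure of each pair from additivity for the 9 genes, as the pair's log2 fold change minus the sum of the single ligands' log2 fold changes, with the SE of the fit. The EGF+OSM points lie below 0 for 8 genes, down to -4.52 for FN1, and at 3.20 for FBLN5.

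Pairs set against a single ligand use no PBS library. When OSM was added to EGF, FN1 was lower by 8.49-fold (-3.09 ± 0.19 on the log2 scale) and SPARC by 1.54-fold, the 2 genes called lower beside 17.1% of features. TNC, at 1.34 ± 0.16, and TGFBI, at 0.39 ± 0.090, were the 2 called higher beside 17.8%. THBS1, at -0.24 ± 0.22, was called lower with only those 2 groups in the fit, at -0.27. POSTN, at 0.52 ± 0.26, was called higher without EGF+OSM library 3, at 0.83, and FBLN5, at 0.36 ± 0.16, with the replicate number as a block, at 0.37. When EGF was added to OSM, THBS1 at 1.33 ± 0.22 and SPARC at 0.37 ± 0.13 were called higher beside 29.9% of features, and FN1, TNC, TGFBI, FBN1 and SPOCK1 were the 5 called lower beside 31.8%. FN1 was 4.67-fold lower there and TGFBI 2.22-fold lower. SPARC lost its call at 0.30 and 0.28 without OSM library 1 or 2 and at 0.34 and 0.30 without EGF+OSM library 1 or 3. SPOCK1, at -0.58 ± 0.22, lost it at -0.47 without OSM library 1 at -0.38 without EGF+OSM library 3 and at -0.56 with no filter on low counts. POSTN, at -0.49 ± 0.24, was called lower without OSM library 2, at -0.71, or EGF+OSM library 1, at -0.75.

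TGFB added to another ligand came with higher levels throughout. On EGF all 9 genes were called higher, where 27% of features were, on OSM all 9, where 26.1% were, and on EGF+OSM 8 of 9, where 31.6% were. The gene not called was THBS1, at 0.48 ± 0.22, although its libraries did not overlap, and it was called at 0.46 with only those 2 groups in the fit and at 0.47 with the replicate number as a block. THBS1 also had the smallest log2 change on OSM, 0.74 ± 0.22, a call lost at 0.54 without OSM library 2 at 0.47 without OSM+TGFB library 3 and at 0.73 with only those 2 groups in the fit. The change of FN1 on TGFB addition was 3.21 ± 0.19 on EGF, 4.62 ± 0.20 on OSM and 5.62 ± 0.21 on EGF+OSM, where its start was lowest. TGFBI changed by 2.43 ± 0.094, 1.74 ± 0.092 and 2.67 ± 0.095 in the same order.

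EGF added to TGFB had 7 genes called higher, beside 33.9% of features, with THBS1 at 3.67 ± 0.24 and TNC at 2.63 ± 0.16, and 1 called lower, FBLN5 at -2.39 ± 0.10, beside 35.5%. TGFBI was not called, at -0.19 ± 0.090, but was with upper-quartile scaling, at -0.26, with only those 2 groups in the fit, at -0.20, without TGFB library 2, at -0.25, and without EGF+TGFB library 2, at -0.25. With 1 library left out the value ran from -0.089 to -0.25. OSM added to TGFB had 8 called higher, beside 30.1%, with TNC at 4.5 ± 0.18 and POSTN at 3.76 ± 0.22, and FBLN5 called lower at -1.64 ± 0.10, beside 26.4%. Added to a pair holding TGFB, OSM and EGF each had fewer genes called than on TGFB alone, and fewer of all features too. OSM added to EGF+TGFB had 3 called higher, beside 13.6%, TNC at 1.67 ± 0.16, POSTN at 1.12 ± 0.19 and TGFBI at 0.63 ± 0.090, and 3 called lower, beside 12.8%, THBS1 at -0.94 ± 0.22, FN1 at -0.68 ± 0.17 and FBLN5 at -0.50 ± 0.11. SPOCK1, at 0.42 ± 0.21, was called with the block, at 0.41, or without library 3 of all 3 ligands, at 0.60. EGF added to OSM+TGFB had THBS1 at 1.07 ± 0.22 and SPARC at 0.32 ± 0.12 called higher, beside 26.3%, and FN1 at -1.23 ± 0.18, FBLN5 at -1.25 ± 0.11 and TGFBI at -0.23 ± 0.090 called lower, beside 25.9%. In that comparison TGFBI lost its call without any one of the 6 libraries, at -0.20 to -0.25. SPARC lost it at 0.23 and 0.28 without OSM+TGFB library 1 or 2 and at 0.34 and 0.27 without library 1 or 3 of all 3 ligands. Neither was called with no filter on low counts, at -0.21 and 0.34, nor was SPARC with only those 2 groups in the fit, at 0.31. In that fit TNC, at -0.21, and POSTN, at -0.39, were called lower, and POSTN also with the block, at -0.38.

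**Figure D4:**
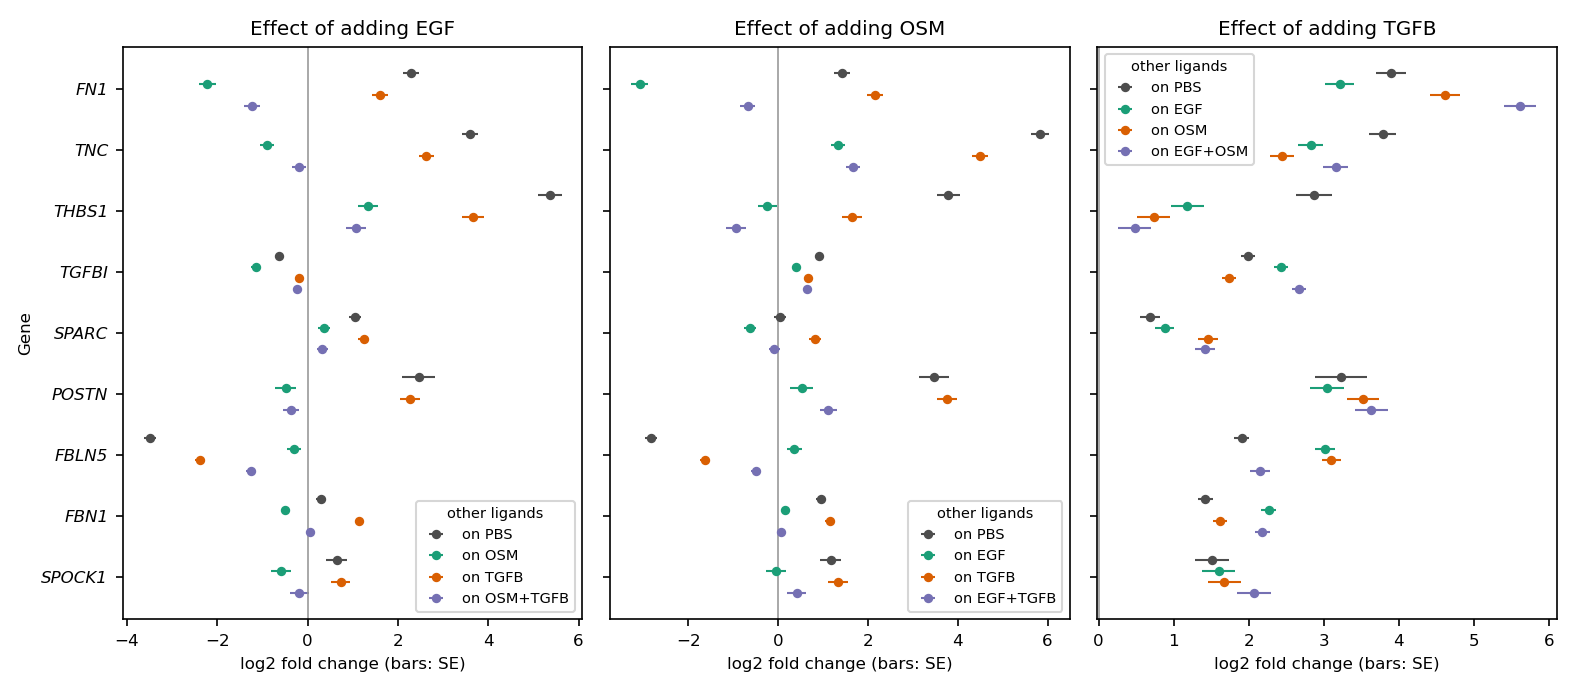
Log2 fold change on adding EGF, OSM or TGFB to PBS or to the other ligands, for each gene, with the SE of the fit; the 3 panels have different horizontal scales. The points for FN1 lie on both sides of 0 for EGF and for OSM and between 3.21 and 5.62 for TGFB.

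Over the 24 h in PBS after T0, 7 genes were called lower, beside 18.9% of all features, and 2 higher, FBLN5 and POSTN, beside 16.2%. SPARC was 3.14-fold lower, THBS1 2.40-fold, FBN1 1.80-fold, FN1 1.68-fold and TNC 1.58-fold, while FBLN5 was 4.46-fold higher. The calls of TGFBI, at -0.25 ± 0.090, and SPOCK1, at -0.61 ± 0.23, were the least firm in fits without a replicate block. With the replicate number as a block, all 9 genes stayed called. TGFBI lost its call at -0.24 and -0.19 without T0 library 1 or 3 and at -0.24 and -0.18 without PBS library 1 or 2. SPOCK1 lost it without T0 library 1 or 2 and without each of the PBS libraries, at -0.45 to -0.66. Neither was called with no filter on low counts, at -0.26 and -0.61, nor was TGFBI with only those 2 groups in the fit, at -0.25. The ligands were set against the PBS group of the same age, so a level that stayed near T0 also counts as a change against PBS. SPARC with EGF, at a mean of 31.0 CPM, was above PBS at 15.1 CPM and below T0 at 47.4 CPM. FBLN5 with EGF, at 1.29 CPM, was below PBS at 14.7 CPM and less far below T0 at 3.30 CPM.

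Correlations between the 9 genes varied widely. Over the 27 libraries the correlation of log2 CPM was highest between TNC and POSTN, at 0.95, followed by FBN1 with SPOCK1 at 0.939 and TGFBI with FBN1 at 0.916. FBLN5 correlated least with the others, at -0.245 with THBS1, 0.072 with TNC and 0.114 with SPARC, and at most 0.673, with TGFBI. The libraries share treatments, so these values describe a common response to 9 conditions and carry no p-value. Among 10627 features with a mean of at least 5 CPM, the one most like FN1 was the kinase gene CDK14 at 0.978, ahead of CD151 at 0.969 and ORAI2 at 0.968. FAP, which encodes fibroblast activation protein, was nearest to TNC at 0.990, with PTGFRN at 0.990 and HDAC7 at 0.988. TNFRSF12A, the receptor of the cytokine TWEAK, was nearest to THBS1 at 0.984, ahead of CPNE2 at 0.984 and ALDH1B1 at 0.981. TGFBI was nearest to INAVA at 0.978, FKBP9 at 0.977 and NUAK1 at 0.976, and POSTN to ARID5A at 0.976, CANT1 at 0.975 and IRAK2 at 0.972. FBN1 was nearest to CD63 at 0.968, ECE1 at 0.966 and PARVA at 0.964. SPOCK1 was nearest to the integrin subunit ITGAV at 0.975, PPFIBP1 at 0.973 and CMTM3 at 0.968. SPARC, nearest to S100A13 at 0.952, CAPG at 0.922 and MLLT11 at 0.905, and FBLN5, nearest to CHD9 at 0.955, JAK1 at 0.951 and TRAF6 at 0.944, had the least close neighbours.

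Other genes of the same protein families were taken from a list drawn up by family. Of 34 relatives (thrombospondins, tenascins, SPARC and testican relatives, CCN proteins, fibulins, fibrillins and associated microfibril proteins), 21 passed the filter. TGFB had 7 of the 21 called higher and 1 lower, beside 19.9% and 15.8% of all features. EGF had 6 higher and 9 lower, beside 34.9% and 38.6%, and OSM had 7 and 7, beside 33.5% and 29.8%. EGF+OSM had 8 and 10, beside 37.6% and 39.6%, and EGF+TGFB had 6 and 9, beside 36.2% and 37.5%. OSM+TGFB had 9 and 8, beside 34.2% and 31.8%, and all 3 ligands had 8 and 8, beside 37.7% and 36.7%. Their median log2 fold change was 0.28 with TGFB, -0.54 with EGF and -0.74 with EGF+OSM. CCN1 and CCN2, whose products are matricellular proteins and which are known as targets of YAP and TGFB, had their highest means in EGF+TGFB, as THBS1 did. CCN2 was at 1.94 ± 0.363 CPM in PBS, 32.0 ± 3.34 CPM with EGF (4.05 ± 0.14, edgeR adjusted p = 3.5e-17) and 146 ± 15.3 CPM with EGF+TGFB (6.24 ± 0.14, adjusted p = 4.3e-21). CCN1 was at 6.50 ± 0.649, 53.8 ± 1.1 and 197 ± 12.4 CPM in the same groups. FBLN1, a fibulin more abundant than FBLN5, was lower with EGF, at -1.42 ± 0.061, and with OSM, at -1.19 ± 0.061, and slightly higher with TGFB, at 0.30 ± 0.060 (adjusted p = 0.00028). With EGF+OSM it stood at -2.22 ± 0.063. FBN2, the sister of FBN1, had its highest mean of all 9 groups in EGF+OSM, at 784 CPM (3.60 ± 0.17). With TGFB alone its change of 0.28 ± 0.16 was not called, and TGFB added to EGF+OSM came with less FBN2, at -0.80 ± 0.16. EFEMP1, which encodes fibulin 3, was highest with OSM, at 1.24 ± 0.069.

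Of 15 receptor genes for these proteins (integrin subunits, syndecans, CD36 and CD47), 14 passed the filter. EGF had 10 of the 14 called higher and 4 lower, beside 34.9% and 38.6% of all features. OSM had 9 and 2, beside 33.5% and 29.8%, and TGFB had 8 and 1, beside 19.9% and 15.8%. Each combination had 10 called higher. EGF+OSM had 4 lower, with all-feature shares of 37.6% higher and 39.6% lower, and EGF+TGFB had 2 lower, with shares of 36.2% and 37.5%. OSM+TGFB had 3 lower, with shares of 34.2% and 31.8%, and all 3 ligands had 4 lower, with shares of 37.7% and 36.7%. Their median log2 fold change was 0.58 with EGF, 0.65 with OSM, 0.75 with TGFB and 1.70 with EGF+TGFB. ITGA5 and ITGB1 encode the 2 chains of the classical fibronectin receptor. ITGA5 rose with OSM+TGFB by 2.93 ± 0.11 (adjusted p = 9.4e-17), the pair in which FN1 was highest, and with EGF+OSM by 1.00 ± 0.10 (adjusted p = 6.6e-09), the pair in which FN1 was lowest. ITGB1 rose by 1.47 ± 0.070 and 0.93 ± 0.069 in the same pairs. ITGB6, whose integrin binds fibronectin and activates latent TGFB, rose by 2.65 ± 0.14 with TGFB and 3.79 ± 0.15 with OSM+TGFB. ITGA3 departed from additivity in EGF+OSM by -1.57 ± 0.081 and ITGB6 by -1.85 ± 0.19, with each single ligand and the pair called above PBS for both genes. SDC1, which encodes syndecan 1, fell with TGFB by 0.60 ± 0.081 on the log2 scale and was higher than PBS with EGF+TGFB, at 0.45 ± 0.081.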

How the data were processed

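RNA-seq of 27 libraries of the MCF10A line, 3 in each of 9 groups, was analysed from a deposited table of estimated counts per gene, held as whole numbers. The submitters' processing notes name Trim Galore 0.4.3, cutadapt 1.10, FastQC 0.11.5, kallisto 0.46.2, R 3.5.0 and the builds GRCh38.p5 and hg38, with no role for each. How the authors summed transcripts to genes is not given in the sources used here. The deposited estimated counts share reads between similar transcripts by estimation, so genes with close copies are less certain than others. Rows sharing a symbol were summed (40487 rows to 36536 features), and the 7165 rows with no symbol were kept under their gene identifier.

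Features were filtered with filterByExpr by group, leaving 15575, scaled by TMM and tested with edgeR 4.0.16 (R 4.3.3) by the quasi-likelihood test over all 27 libraries, with 18 residual degrees of freedom and Benjamini-Hochberg adjustment. CPM values use TMM-scaled totals, with factors from 0.867 to 1.118. Log2 CPM for likeness had a prior count of 2. DESeq2 1.42.0, upper-quartile scaling, no filter, rows as deposited, a replicate block, only the groups compared, a fold of at least 2, and each library left out were tried as alternatives. Between libraries of a group, counts differed by more than sampling noise, and none were identical.

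The 9 genes and the lists were chosen with earlier results of these data known. Genes named besides the 9 were the 5 most abundant tested relatives and receptors, the 3 features most like each of the 9 over the libraries, and genes known to answer to each ligand as a check of the labels. One gene of that check is not reported here. Gene positions are from GENCODE v44. Depth is known for every library, and intervals cover counting error only. The samples are from 1 established cell line.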

Additional observations from a re-analysis of the deposited data

Results flagged for a closer look

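In medium without TGFB, some effects of EGF or OSM were called in opposite directions without and with the other ligand. This was so in FN1, TNC, FBN1 and SPOCK1. The share of all features with such opposite calls was not counted, so their number carries no reading. Other genes had values of opposite sign there of which at least 1 was not called. Examples are POSTN with EGF, at 2.46 without OSM and -0.49 with it, and THBS1 with OSM, at 3.79 without EGF and -0.24 with it. In medium with TGFB, opposite calls fell in THBS1 for OSM, at 1.65 without EGF and -0.94 with it. FN1 had them there for OSM, at 2.16 without EGF and -0.68 with it, and for EGF, at 1.61 without OSM and -1.23 with it. Without TGFB, the log2 fold change of FN1 on adding EGF was 2.29 ± 0.18 (SE) without OSM and -2.22 ± 0.18 with it. That on adding OSM was 1.43 ± 0.18 without EGF and -3.09 ± 0.19 with it. Both pairs of effects differ by -4.52 on the log2 scale, which is the same contrast, the departure from additivity. In TNC the effect of EGF was 3.59 ± 0.18 without OSM and -0.91 ± 0.15 with it, a difference of -4.50. In FBN1 it was 0.29 ± 0.11 and -0.50 ± 0.10, a difference of -0.79, where the first value lost its call without PBS library 2, at 0.18, or EGF library 2, at 0.20. In SPOCK1 it was 0.64 ± 0.23 and -0.58 ± 0.22, a difference of -1.23. The first of these lost its call without PBS library 3, at 0.61, or EGF library 1, at 0.52, and the second without OSM library 1, at -0.47, or EGF+OSM library 3, at -0.38. Since the 4 genes were picked for these opposite calls, the differences are given as values with no test.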

How the results depend on the processing

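For the 9 genes 2322 fold changes were recomputed under the alternatives, leaving aside the fold of at least 2. Of these, 2223 (95.7%) kept their direction and their side of the threshold, 75 lost the call, 16 gained it and 8 changed sign. The changes fell in 28 of the 180 pairs of a gene and a comparison, and none came from DESeq2 or from rows as deposited. Each of the 9 genes has a single row, so rows as deposited left their counts unchanged and could hardly alter a call. When a fold of at least 2 was also required, the number of genes called was 4 of 9 for EGF+OSM against PBS and 4 for PBS against T0. It was 2 for the departure of EGF+TGFB and 3 for that of OSM+TGFB. It was 2 for OSM added to EGF, 3 for EGF added to OSM, 2 for OSM added to EGF+TGFB and 3 for EGF added to OSM+TGFB. That last comparison had 5 genes called, 3 with no filter on low counts, and 3 to 4 with each library left out. The limit also removed TGFBI, SPARC and FBN1 from the EGF+OSM departure. Against PBS it removed TGFBI, FBN1 and SPOCK1 with EGF, TGFBI and FBN1 with OSM, SPARC with TGFB, and FBLN5 with each combination holding TGFB. For additions it removed SPARC (TGFB on EGF), SPOCK1 (EGF on TGFB), THBS1 (TGFB on OSM) and TGFBI and SPARC (OSM on TGFB). Shares of all features at this limit were not counted. The sign changed for 4 values that were not called to begin with. SPARC with OSM against PBS was -0.012 under upper-quartile scaling and -0.12 to 0.18 with libraries left out. SPOCK1 with libraries left out ran from -0.091 to 0.29 for the departure of EGF+TGFB, from -0.012 to 0.28 for that of OSM+TGFB and from -0.22 to 0.15 for OSM added to EGF. The cause was not tested.

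Replicate numbers recur in every group, and the main fit did not take them as pairs. Of 108 pairs of same-numbered libraries, 23 had deviations that correlated above 0.1 (median 0.057). Yet 26 of 27 libraries correlated best with their own number, so the weak correlations do not decide that the numbers mark no pairs. The fits with a library left out had no block either, so the calls lost in them were lost without it. No call of the 9 genes was lost with the block. With the replicate number as a block, 5 instead of 4 genes were called for OSM added to EGF, with FBLN5 gained, 9 instead of 8 for TGFB added to EGF+OSM, with THBS1 gained, 7 instead of 6 for OSM added to EGF+TGFB, with SPOCK1 gained, and 6 instead of 5 for EGF added to OSM+TGFB, with POSTN gained; in the other comparisons the number called was equal. Features called rose 1.01 to 1.21 times. Counts were fewest for POSTN, with 8 in all at T0 and 54 in PBS. The PBS counts enter its fold changes against PBS and its departures. The SE of those departures, 0.44 to 0.48, was the largest of the 9 genes.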
